A study of Homo sapiens with 8 samples.

Results

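The miR-15/16 seed family is a group of microRNAs (miRNAs) whose 5p strands carry the same seed, the short stretch near the 5′ end that pairs with target transcripts. The 10 members described here were chosen by name: the 7 5p strands hsa-miR-16-5p, hsa-miR-15b-5p, hsa-miR-15a-5p, hsa-miR-424-5p, hsa-miR-503-5p, hsa-miR-195-5p and hsa-miR-497-5p, and the 3 opposite strands hsa-miR-15b-3p, hsa-miR-16-2-3p and hsa-miR-424-3p (hsa, for human, is left off below). They are 10 of 1818 mature names with a read, and all 10 passed the filter on low counts that left 625 names for testing. The libraries came from HCT116, a human colorectal carcinoma cell line, in which DICER was supplied as a rescue. DICER carried the substitution R1855L, R821H or R1003Q or was wild type (WT), with 2 libraries in each of the 4 groups. The sources used here do not give how the rescue DICER was introduced, whether a group was 1 clone, the state of the endogenous gene or the level of DICER protein. The comparisons ask whether each substitution changed the amount of these miRNAs or the balance of their strands. Nothing in the labels says that replicates were separate cultures, so the spread behind each p-value is that between libraries and may be technical.

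DICER cuts a precursor hairpin near its loop and releases a duplex, whose guide strand is kept by an Argonaute protein while the opposite strand, the passenger, is mostly lost. The guide strands of this family repress cell-cycle and survival genes, among them BCL2, the D- and E-type cyclins and CDK6. The locus that holds miR-15a and miR-16-1 is often deleted in chronic lymphocytic leukaemia, where the pair acts as a tumour suppressor.

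The mature sequences are shown first because the seed defines the family and the rest of the strand tells its members apart. Sequences are from RefSeq on GRCh38.p14, all 10 members matched by name, and capitals mark the seed (bases 2 to 8).
miR-16-5p: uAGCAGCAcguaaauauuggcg
miR-15b-5p: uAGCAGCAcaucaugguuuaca
miR-15a-5p: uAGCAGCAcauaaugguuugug
miR-195-5p: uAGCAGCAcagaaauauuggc
miR-424-5p: cAGCAGCAauucauguuuugaa
miR-497-5p: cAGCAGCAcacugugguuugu
miR-503-5p: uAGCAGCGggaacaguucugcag
miR-15b-3p: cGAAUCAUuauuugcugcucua
miR-16-2-3p: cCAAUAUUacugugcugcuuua
miR-424-3p: cAAAACGUgaggcgcugcuau
Of the 7 5p members 6 shared all bases of the seed. miR-503-5p shared bases 2 to 7 with them and departed at base 8. Outside the seed the 5p strands diverged. Identity was counted base by base from the start of the strands, without gaps and with the seed included. Over the length of the shorter strand it ran from 47.6% between miR-497-5p and miR-503-5p to 90.5% between miR-16-5p and miR-195-5p. A total of 5 of the 7 started with U and 2 with C. The 3p members are paired with the family strands in their hairpins but had 3 seeds of their own, none of them the family's.

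The members come from 8 hairpins on 4 chromosomes, 2 hairpins to a chromosome, placed here on GRCh38. MIR15A (chr13:50049119-50049201) and MIR16-1 (chr13:50048973-50049061) lie on the minus strand in DLEU2, a long non-coding RNA gene. In GENCODE release 29 MIR15A overlaps a DLEU2 exon and MIR16-1 is intronic. MIR15B (chr3:160404588-160404685) and MIR16-2 (chr3:160404745-160404825) lie on the plus strand in an intron of SMC4, which encodes a condensin subunit. MIR195 (chr17:7017615-7017701) and MIR497 (chr17:7017911-7018022) overlap exons of their host transcript MIR497HG on the minus strand. MIR424 (chrX:134546614-134546711) overlaps an exon of MIR503HG, and MIR503 (chrX:134546328-134546398) lies in an intron of it, both on the minus strand. The hairpins of a pair are separated by 57 bases on chromosome 13, 59 on chromosome 3 and 209 on chromosome 17, with a gap of about the last size on chromosome X.

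miR-16-5p is made from both MIR16-1 and MIR16-2, and its reads cannot be assigned to either. The 3p strands differ between these hairpins and do tell them apart. The hairpins are shown in full for that reason, with the 5p and then the 3p mature strand in capitals.
MIR16-1: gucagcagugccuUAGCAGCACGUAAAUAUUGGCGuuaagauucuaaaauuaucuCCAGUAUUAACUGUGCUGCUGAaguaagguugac
MIR16-2: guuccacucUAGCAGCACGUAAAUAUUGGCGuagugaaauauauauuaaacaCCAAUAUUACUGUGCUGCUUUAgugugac
The 22-base 5p strand is the same in both. The loop between the strands is 20 bases long in MIR16-1 and 21 in MIR16-2.

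Library depth differed by up to 9.22 times and bears on several results. Replicates 1 and 2 held 2241881 and 462805 reads in R1855L, 3340304 and 841857 in R821H, 1143373 and 675934 in R1003Q, and 1137858 and 4269231 in WT. At the widest gap in these totals R1855L replicate 1, R821H replicate 1 and WT replicate 2 fall on the deep side, and the other 5, including both R1003Q libraries, on the shallow side. Names that mark colon epithelium (7 of 7 detected) summed to 2066 to 2337 CPM (reads scaled to a common total) in R1855L, 1975 to 2242 in R821H, 1927 to 2204 in R1003Q and 2292 to 2438 in WT. Blood names (6 of 6 detected) summed to 696 to 1013 CPM in R1855L, 587 to 624 in R821H, 591 to 599 in R1003Q and 578 to 811 in WT, and they were unequally abundant: miR-223-3p had 2 to 9 reads per library and miR-150-5p 2 to 10, whereas miR-142-3p had 208 to 1284 and miR-451a 78 to 978. Colon names were unequal as well. miR-200b-3p had 974 to 1562 CPM, whereas miR-200c-3p had 21.1 to 43.7, miR-141-3p 13.0 to 42.9 and miR-215-5p 0 to 5 reads. In the other lists miR-126-3p (endothelium) had 341 to 476 CPM, miR-9-5p (neuron) 532 to 1076 and miR-122-5p (liver) 60.7 to 113.9. The neuron name miR-124-3p and the muscle names miR-1-3p and miR-133a-3p stayed at or below 10.8 CPM. Of the colon names miR-141-3p and miR-429 were called in R1855L against WT by edgeR, and none of the names in the other lists was called. Their part in the results below was not tested.

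Levels are given as CPM after TMM scaling, which corrects library totals for composition, and the mature strands are of similar length, 21 to 23 bases. A level counts reads, and how evenly the protocol captures different sequences was not tested, so the order of members is an order of reads. By reads in WT miR-16-5p ranked 6 of the 625 tested names. miR-15b-5p ranked 35, miR-15a-5p 68, miR-15b-3p 110, miR-16-2-3p 115, miR-424-5p 172, miR-503-5p 187, miR-195-5p 275, miR-497-5p 358 and miR-424-3p 394. miR-16-5p, miR-15b-5p and miR-15a-5p kept this order in every library. Below them neighbours overlapped: miR-15b-3p spanned 551 to 891 CPM over the 8 libraries and miR-16-2-3p 482 to 794, while miR-424-5p spanned 130 to 436 and miR-503-5p 199 to 326. miR-195-5p (36.7 to 126.4 CPM), miR-497-5p (25.8 to 49.2) and miR-424-3p (12.5 to 59.5) overlapped as well. Every member had reads in every library, the fewest being 14, for miR-424-3p in R1003Q replicate 1 and for miR-497-5p in R1855L replicate 2.

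**Figure D1:**
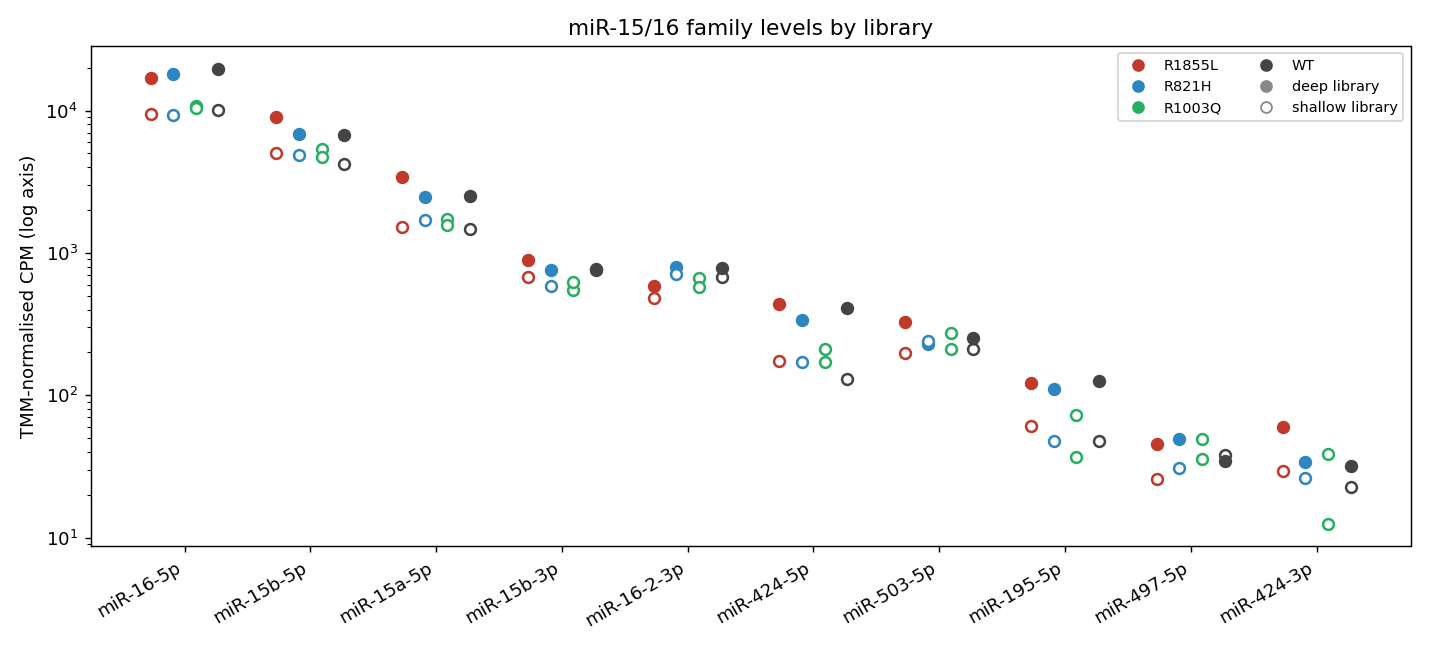
TMM-normalised CPM (log axis) of the 10 members in each of the 8 libraries, grouped by DICER rescue, with deep and shallow libraries marked. miR-16-5p is highest and miR-424-3p and miR-497-5p are lowest, and for the abundant 5p strands the deep library of a group lies above the shallow one.

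No member passed the test in R1855L against WT, 0 of 10 by edgeR (quasi-likelihood test, Benjamini-Hochberg adjustment over all 625 names), where the background was 36 calls or 5.76%. DESeq2 called 0 members and 52 names in all, and 0 members had an unadjusted p under 0.05 by either tool. Log2 fold changes of the members ran from -0.45 to 0.74 with a median of 0.12, beside a median of 0.13 over all tested names.

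miR-16-5p, the most abundant family guide, had 16904 and 9432 CPM in the R1855L libraries, against 10065 and 19718 in the WT libraries (replicates 1 and 2 throughout). Each group had 1 high and 1 low library, and the groups overlapped. The means were 13168 ± 5284 in R1855L and 14892 ± 6826 in WT (SD, n = 2 each), a log2 fold change of -0.18 with SE 0.46 and an edgeR 95% interval of -1.26 to 0.90. The difference was smaller than the spread between replicates.

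miR-15b-5p, which is made beside miR-16-2 from the SMC4 intron, had 9080 and 5075 CPM in R1855L, against 4187 and 6720 CPM in WT. The groups overlapped, with the deep R1855L library above both WT libraries (log2 0.38, SE 0.38). miR-15a-5p, the partner of miR-16-1, had 3433 and 1529 CPM in R1855L, against 1478 and 2497 CPM in WT. Here too the deep library of each group was the higher one (log2 0.32, SE 0.44, edgeR adjusted p = 0.745).

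The member with the smallest p was miR-16-2-3p, the passenger strand of MIR16-2. It had 588 and 482 CPM in R1855L, against 678 and 784 CPM in WT. Both R1855L libraries were below both WT libraries, which held for 1 of 10 members and for 21.4% of all tested names. The log2 fold change was -0.45 (SE 0.23, edgeR adjusted p = 0.357). It was -0.41 for the deep pair of libraries and -0.49 for the shallow pair. A model with a term for deep against shallow gave the same -0.45 with SE 0.18 and an adjusted p of 0.0611, again not called.

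miR-424-3p, the passenger strand of miR-424, had the highest fitted change, on few reads. Its CPM were 59.5 and 29.4 in R1855L (121 and 16 reads), against 22.8 and 31.7 in WT. The shallow R1855L library lay between the WT libraries, and the log2 fold change was 0.74 (SE 0.54, edgeR adjusted p = 0.525). The other 5 members, miR-15b-3p, miR-424-5p, miR-503-5p, miR-195-5p and miR-497-5p, had log2 fold changes from 0.04 to 0.19, each smaller than its SE.

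**Figure D2:**
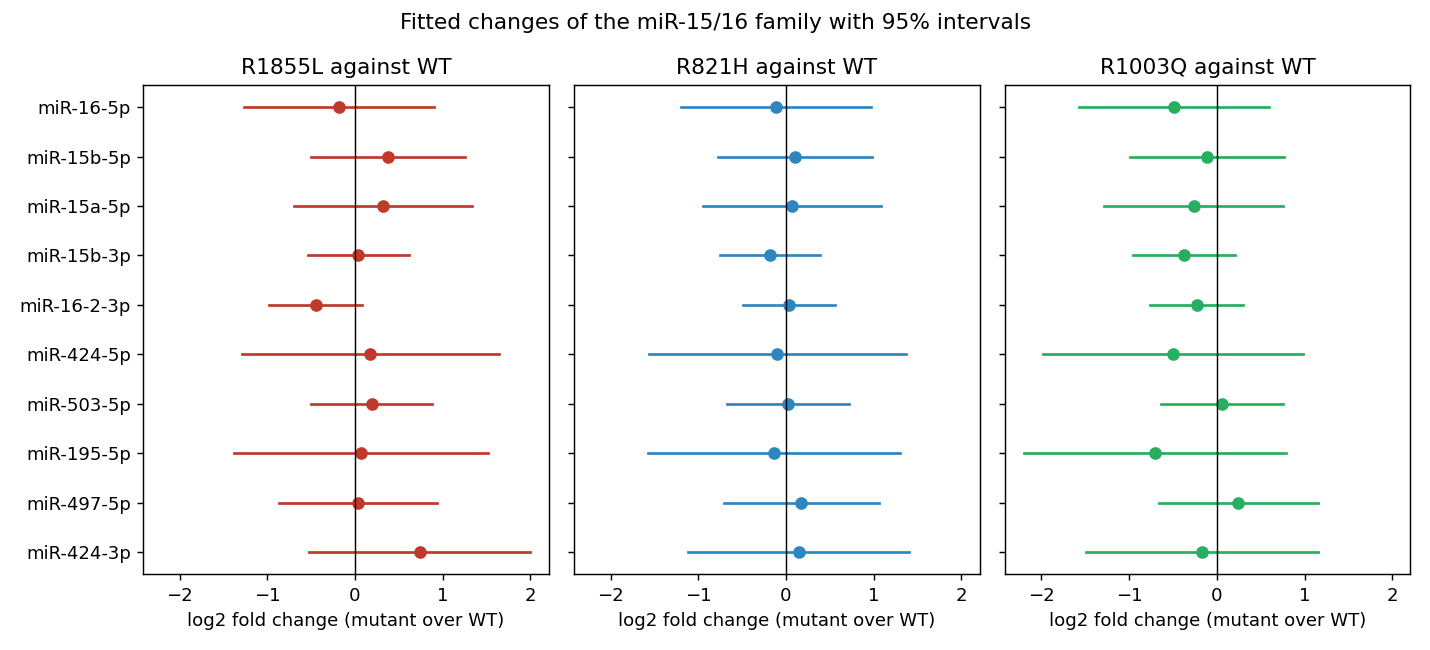
Log2 fold change of each member in R1855L, R821H and R1003Q against WT, with edgeR 95% intervals as bars. Every interval crosses 0, and those of miR-195-5p, miR-424-5p and miR-424-3p are the widest of the 10 members.

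In R821H the members' log2 fold changes ran from -0.18 to 0.18 with a median of 0.03, beside 0.04 over all names. By edgeR 0 of 10 members and 0% of all names were called, while DESeq2 called 0 members and 1 name in all. At an unadjusted p under 0.05 edgeR had 0 members and 20 names. No member had both R821H libraries above both WT libraries, beside 15.4% of all names, or both below, beside 13.1%. miR-16-5p had 18210 and 9374 CPM in R821H, against 10065 and 19718 CPM in WT, so each group again had 1 high and 1 low library (log2 -0.11, SE 0.46, 95% interval -1.19 to 0.97).

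The largest distance from 0 in R821H was that of miR-15b-3p, the passenger strand of miR-15b. It had 763 and 582 CPM in R821H, against 754 and 773 CPM in WT. One R821H library lay between the WT libraries and the other below them (log2 -0.18, SE 0.25). miR-497-5p, encoded beside miR-195 and like it a repressor of cell-cycle genes, had 49.1 and 31.0 CPM in R821H, against 38.0 and 34.3 CPM in WT. The R821H libraries bracketed those of WT (log2 0.18, SE 0.38).

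In R1003Q 8 of 10 members lay below WT and the median log2 fold change was -0.25, beside 0.06 over all names. The members share the same libraries, so their signs are not independent. The share of all names below or above WT was not counted. By edgeR 0 of 10 members and 0% of all names were called, while DESeq2 called 0 names in all. At an unadjusted p under 0.05 edgeR had 0 members and 31 names. Both R1003Q libraries were shallow, and the direction of most members changed when depth was matched. Against the shallow WT library alone 8 of 10 members were above it, with a median of 0.16 beside 0.08 over all names. The depth term also gave 8 above and 2 below, with a median of 0.16 beside 0.04 over all names. With it the 3p strands miR-15b-3p and miR-16-2-3p stayed below 0, at -0.24 and -0.12, whereas the 5p strands miR-15a-5p, miR-15b-5p, miR-16-5p, miR-195-5p and miR-424-5p had log2 fold changes of 0.19, 0.26, 0.05, 0.02 and 0.38.

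miR-195-5p, the member closest in sequence to miR-16-5p, had the lowest log2 fold change in R1003Q. Its CPM were 36.7 and 72.5 in R1003Q, against 47.9 and 126.4 in WT, and the groups overlapped (log2 -0.71, SE 0.64, edgeR adjusted p = 0.881). miR-16-5p had 10729 and 10470 CPM in R1003Q, against 10065 and 19718 CPM in WT. The R1003Q libraries were close to each other and to the shallow WT library, and the deep WT library stood apart.

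Both R1003Q libraries were below both WT libraries for 2 of 10 members, close to the 17.8% of all names. These members were passenger strands from the SMC4 intron. The separation was not particular to that intron. miR-16-1-3p from DLEU2 and miR-542-3p from chromosome X, outside the members, also had both R1003Q libraries below both WT libraries. miR-15b-3p had 551 and 628 CPM in R1003Q, against 754 and 773 CPM in WT (log2 -0.37, SE 0.25, edgeR adjusted p = 0.857). miR-16-2-3p had 671 and 574 CPM in R1003Q, against 678 and 784 CPM in WT (log2 -0.23, SE 0.23). Against the shallow WT library alone the values were -0.36 and -0.12.

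miR-503-5p, whose seed departs at base 8, varied least among the rarer 5p strands. It had 326 and 199 CPM in R1855L, 229 and 242 in R821H, 273 and 210 in R1003Q, and 212 and 251 in WT. Every mutant overlapped WT, and the log2 fold changes were 0.19 in R1855L, 0.02 in R821H and 0.06 in R1003Q (SE 0.30 each). Its 95% intervals, -0.50 to 0.88, -0.67 to 0.71 and -0.63 to 0.76 for R1855L, R821H and R1003Q, are narrower than those of its neighbour miR-424-5p, which were -1.29 to 1.64, -1.56 to 1.36 and -1.98 to 0.98.

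miR-15a-5p had 2462 and 1710 CPM in R821H and 1726 and 1581 CPM in R1003Q, against 1478 and 2497 CPM in WT. Both R821H and both R1003Q libraries lay between the WT libraries. miR-15b-5p had 6819 and 4895 CPM in R821H and 5384 and 4688 CPM in R1003Q, against 4187 and 6720 CPM in WT. The R1003Q libraries again fell between those of WT, and 1 R821H library was slightly above both. miR-424-3p had 12.5 and 38.4 CPM in R1003Q, on 14 and 27 reads, against 22.8 and 31.7 CPM in WT, so the R1003Q libraries bracketed WT (log2 -0.165, SE 0.57).

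Between the mutants 0 of 10 members were called by edgeR or DESeq2 in any comparison, and 0 had an unadjusted p under 0.05 by either. The background was 3.84% of names called in R821H against R1855L, 3.68% in R1003Q against R1855L and 0% in R1003Q against R821H. miR-16-2-3p had 794 and 709 CPM in R821H, against 588 and 482 CPM in R1855L. The log2 fold change was 0.49 (SE 0.23, edgeR adjusted p = 0.378). The medians over members were -0.21 in R821H against R1855L, -0.45 in R1003Q against R1855L and -0.29 in R1003Q against R821H, beside -0.06, -0.09 and 0.00 over all names.

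Several members differed between deep and shallow libraries. In the model with group and depth, edgeR called 5 of 10 members higher in the deep libraries and 0 lower. Over all tested names 17.8% were called higher and 36.5% in either direction. Depth and whatever went with it cannot be told apart in these data, and the 2 R1003Q libraries add nothing to this contrast because both are shallow. The shallow averages given here and below do include the R1003Q libraries, so they need not match the log2 values, which come from the model. All 5 were 5p strands. miR-16-5p averaged 18278 CPM in the deep and 10014 CPM in the shallow libraries (log2 0.92, SE 0.13, edgeR adjusted p = 2.42e-06). miR-15a-5p averaged 2797 CPM in the deep and 1605 CPM in the shallow libraries (log2 0.81, SE 0.15). miR-15b-5p averaged 7540 CPM in the deep and 4846 CPM in the shallow libraries (log2 0.67, SE 0.14).

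miR-424-5p and miR-195-5p had the largest deep minus shallow log2 differences among the 10 members. miR-424-5p had 436, 336 and 413 CPM in the deep libraries of R1855L, R821H and WT. It had 175 and 170 CPM in the shallow libraries of R1855L and R821H, 213 and 172 in R1003Q and 130 in WT. The deep and shallow libraries did not overlap (log2 1.33, SE 0.18, edgeR adjusted p = 1.15e-06). miR-195-5p averaged 119 CPM in the deep and 53.1 in the shallow libraries (log2 1.22, SE 0.23, adjusted p = 0.000109).

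Their neighbours were not called. miR-503-5p, encoded beside miR-424 and known to repress cyclin genes, had a deep minus shallow log2 difference of 0.28 (SE 0.18, edgeR adjusted p = 0.240). miR-497-5p, encoded beside miR-195, had 0.37 (SE 0.24, adjusted p = 0.253). The 3p strands miR-15b-3p, miR-16-2-3p and miR-424-3p had 0.27, 0.22 and 0.60, none called. The difference between these members and the 5 called ones was not tested.

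Summed over the 7 5p members, the family took 2.75% and 1.94% of the reads in R1855L, 2.48% and 1.64% in R821H, 1.80% and 1.79% in R1003Q, and 1.87% and 2.68% in WT. In R1855L, R821H and WT the deep library had the larger share, and the R1003Q libraries were close to the shallow ones. In TMM-normalised CPM the sums averaged 23421 ± 9794 in R1855L, 22342 ± 8305 in R821H, 17819 ± 835 in R1003Q and 22959 ± 9618 in WT (SD, n = 2 each). The log2 ratios of these means to WT were 0.03, -0.04 and -0.37, with two-sided exact permutation p = 0.667, 1 and 1, in a design where 0.333 is the smallest possible. Leaving out 1 library turned the sign of each: the values ran from -0.48 (without R1855L replicate 1) to 0.54 (without WT replicate 2) in R1855L and from -0.48 (without R821H replicate 1) to 0.47 (without WT replicate 2) in R821H. In R1003Q they ran from -0.74 (without WT replicate 1) to 0.14 (without WT replicate 2).

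miR-16-5p gave 55.7% and 57.2% of the family's 5p reads in R1855L, 64.5% and 56.9% in R821H, 58.3% and 60.8% in R1003Q, and 62.3% and 66.3% in WT. All 4 R1855L and R1003Q libraries lay below both WT libraries, and R821H overlapped WT. Both R1003Q libraries were shallow, so only WT replicate 1 matches them in depth. Against it alone the R1003Q difference was -2.77 percentage points, and the part of depth was not tested. The difference from WT was -7.83 percentage points in R1855L and -4.75 in R1003Q, each with a two-sided exact permutation p = 0.333, the smallest this design allows, and -3.55 in R821H (exact p = 0.667). With 1 library left out it ran from -9.82 to -5.85 in R1855L, from -7.36 (without R821H replicate 1) to 0.27 (without R821H replicate 2) in R821H, and from -6.74 (without WT replicate 1) to -2.77 (without WT replicate 2) in R1003Q. miR-15b-5p made up the counterpart, with 29.9% and 30.8% in R1855L, 24.2% and 29.7% in R821H, 29.2% and 27.2% in R1003Q, and 25.9% and 22.6% in WT. miR-15a-5p held 8.39% to 11.3% in the 8 libraries and the 4 rarer members together the remainder.

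**Figure D3:**
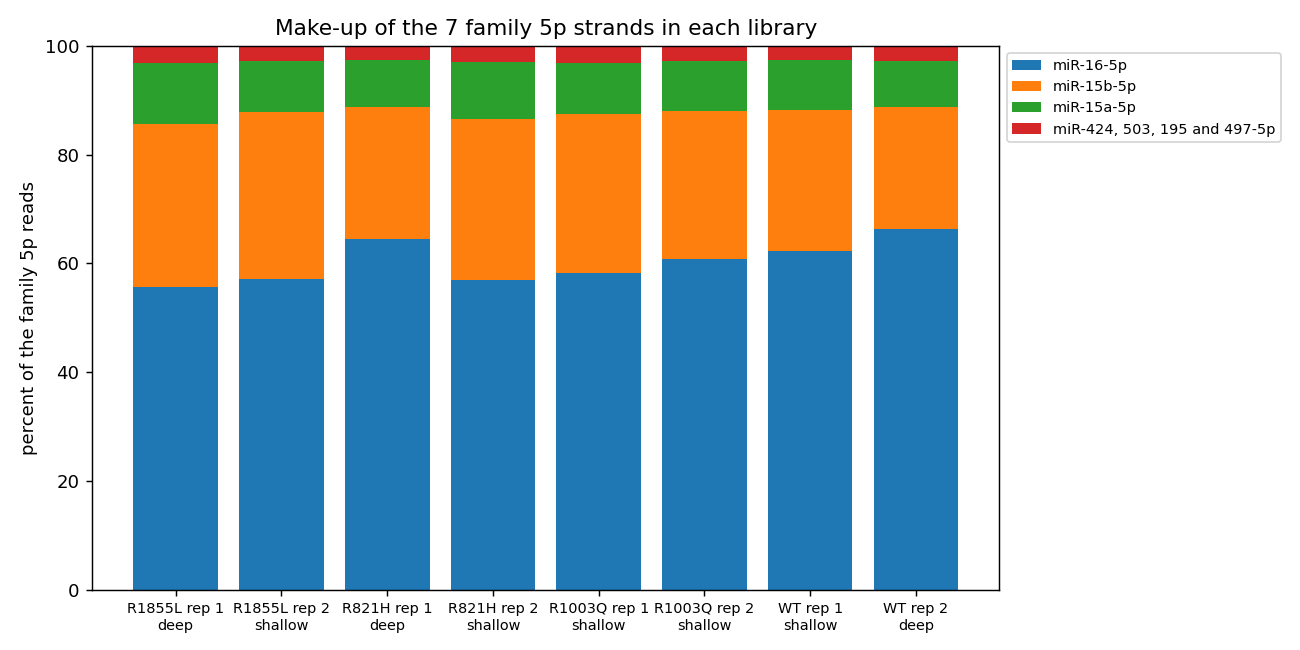
Share of the family's 5p reads (percent) taken by each 5p member in the 8 libraries, in the order R1855L, R821H, R1003Q and WT. miR-16-5p takes most of the reads in every library, from 55.7% in R1855L replicate 1 to 66.3% in WT replicate 2, and miR-15b-5p takes most of the rest.

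Reads of the 3p strands separate the hairpins that miR-16-5p pools. miR-16-1-3p, the strand opposite miR-16-5p in MIR16-1, is not one of the 10 members and is listed with the other strands of their hairpins. The ratio of its reads to those of miR-16-2-3p was 0.395 and 0.431 in R1855L, 0.249 and 0.291 in R821H, 0.241 and 0.265 in R1003Q, and 0.262 and 0.241 in WT. Both R1855L libraries lay above the other 6, which spanned 0.241 to 0.291. Scaling between libraries cannot move this ratio. It was picked with its values known, so it is a description with no test.

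As a share of the reads of both 3p strands, miR-16-1-3p had 28.3% in R1855L replicate 1 (472 of 1668 reads, exact 95% interval 26.1 to 30.5) and 30.1% in replicate 2 (113 of 375, interval 25.5 to 35.1). In WT it had 20.8% in replicate 1 (234 of 1127, interval 18.4 to 23.3) and 19.4% in replicate 2 (727 of 3740, interval 18.2 to 20.7). The intervals of both R1855L libraries lay above those of both WT libraries, and they cover counting error only, since no molecular identifiers are named in the labels.

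Of the strands behind this ratio, neither passed the test alone. miR-16-1-3p had 232 and 208 CPM in R1855L, against 178 and 189 CPM in WT (log2 0.26, SE 0.22, edgeR adjusted p = 0.583), while miR-16-2-3p was at -0.45. Both R1855L libraries were above both WT libraries for the first, as for 21.1% of all tested names. They were below them for the second, as for 21.4%. miR-16-1-3p also separated from WT in the other mutants. It had 198 and 206 CPM in R821H, above both WT libraries, and 162 and 152 in R1003Q, below both. The ratio of miR-16-2-3p to miR-15b-3p, 2 passenger strands of the same intron, was 0.660 and 0.716 in R1855L, 1.04 and 1.22 in R821H, 1.22 and 0.914 in R1003Q, and 0.899 and 1.01 in WT. The R1855L libraries were below the other 6. This ratio uses the same miR-16-2-3p reads as the ratio above, so the 2 are not independent. It too was picked with its values known. The ratio of miR-16-1-3p to miR-15a-5p, both from DLEU2, was 0.0676 and 0.136 in R1855L, 0.0805 and 0.120 in R821H, 0.0938 and 0.0962 in R1003Q, and 0.120 and 0.0757 in WT. Here the R1855L libraries lay on either side of the other 6.

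Ratios between 5p strands were looked at in the same way. miR-15b-5p to miR-16-5p was 0.537 and 0.538 in R1855L, 0.374 and 0.522 in R821H, 0.502 and 0.448 in R1003Q, and 0.416 and 0.341 in WT. R1855L was highest, with R821H replicate 2 close behind, and the R1003Q libraries also lay above both WT libraries. This ratio uses the same reads as the family shares of miR-15b-5p and miR-16-5p above, so it is not a separate observation. Both R1003Q libraries and R821H replicate 2 were shallow. The miR-424-5p to miR-503-5p ratio ran from 0.613 in WT replicate 1 to 1.65 in WT replicate 2, so the WT libraries alone spanned all the mutant ones. The miR-195-5p to miR-497-5p ratio was 2.65 and 2.36 in R1855L, 2.24 and 1.54 in R821H, 0.745 and 2.04 in R1003Q, and 1.26 and 3.68 in WT. R1003Q replicate 1 was below both WT libraries and the other mutant libraries lay between them.

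**Figure D4:**
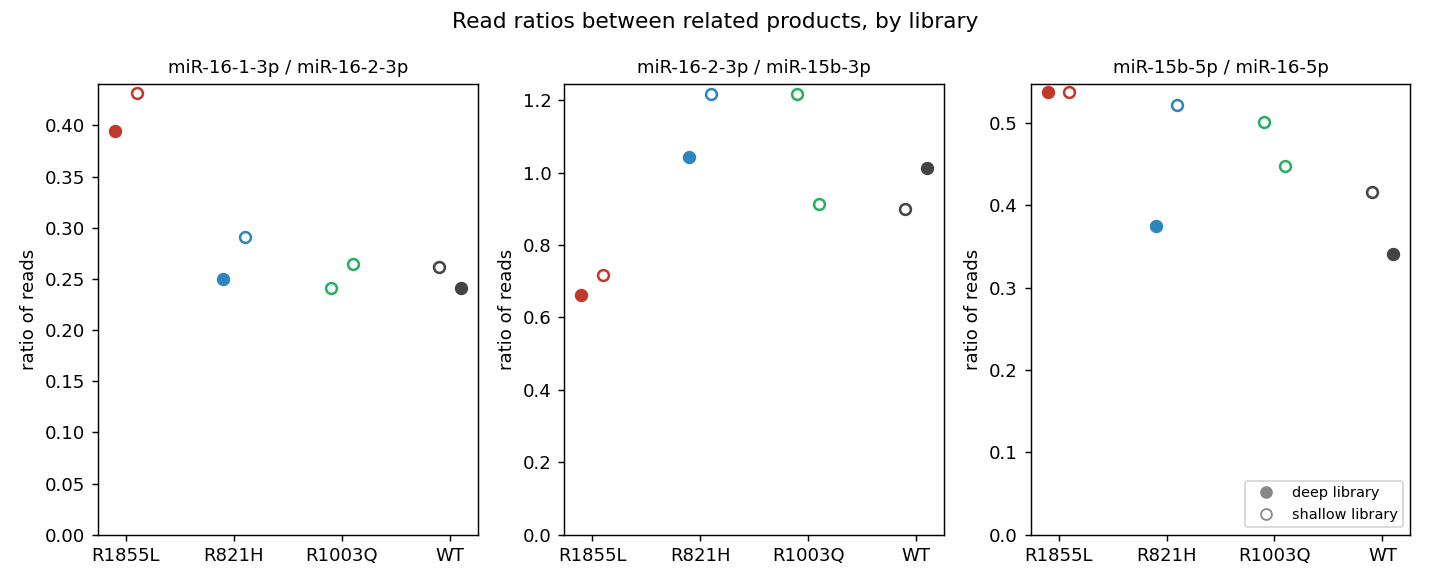
Ratio of reads between members that share a cluster or a mature strand, in each library, with groups in the order R1855L, R821H, R1003Q and WT. In the ratio of miR-16-1-3p to miR-16-2-3p the R1855L libraries are at 0.395 and 0.431 and the other 6 at 0.241 to 0.291.

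The family strongly favoured its 5p strands in every group. The log2 ratio of 5p to 3p reads could be tested in 5 of the hairpin names, miR-15a, miR-15b, miR-16 (its 2 3p strands summed), miR-424 and miR-503. The 3p strands of miR-195 and miR-497 had too few reads, 2 to 10 and 0 to 7 per library. All 5 ratios were above 0 in all 8 libraries. The miR-16 log2 ratio was 4.36 and 3.77 in R1855L, 4.20 and 3.36 in R821H, 3.69 and 3.85 in R1003Q, and 3.55 and 4.34 in WT, and every mutant overlapped WT.

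No family ratio passed the test. By limma 0 of 5 were called in each mutant, where the background was 9.47% of 190 hairpins in R1855L and 0% in R821H and R1003Q. At an unadjusted p under 0.05 there were 0 of the 5 in each mutant, and 41, 4 and 12 of all hairpins in R1855L, R821H and R1003Q. The miR-15a log2 ratio was 5.96 and 5.84 in R1855L, against 6.64 and 6.39 in WT. Both R1855L libraries were lower, toward the 3p strand, on 112 and 14 reads of that strand in R1855L and 19 and 114 in WT. How many of the 190 hairpins separated in this way was not counted. The miR-15a change was -0.62 with SE 0.37 (adjusted p = 0.430 by limma). The miR-15b log2 ratio was 3.35 and 2.91 in R1855L, 3.16 and 3.07 in R821H, 3.29 and 2.90 in R1003Q, and 2.47 and 3.12 in WT. Its change was 0.33 in R1855L, 0.32 in R821H and 0.30 in R1003Q (SE 0.38 each), less than the SD of 0.46 between the WT libraries.

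**Figure D5:**
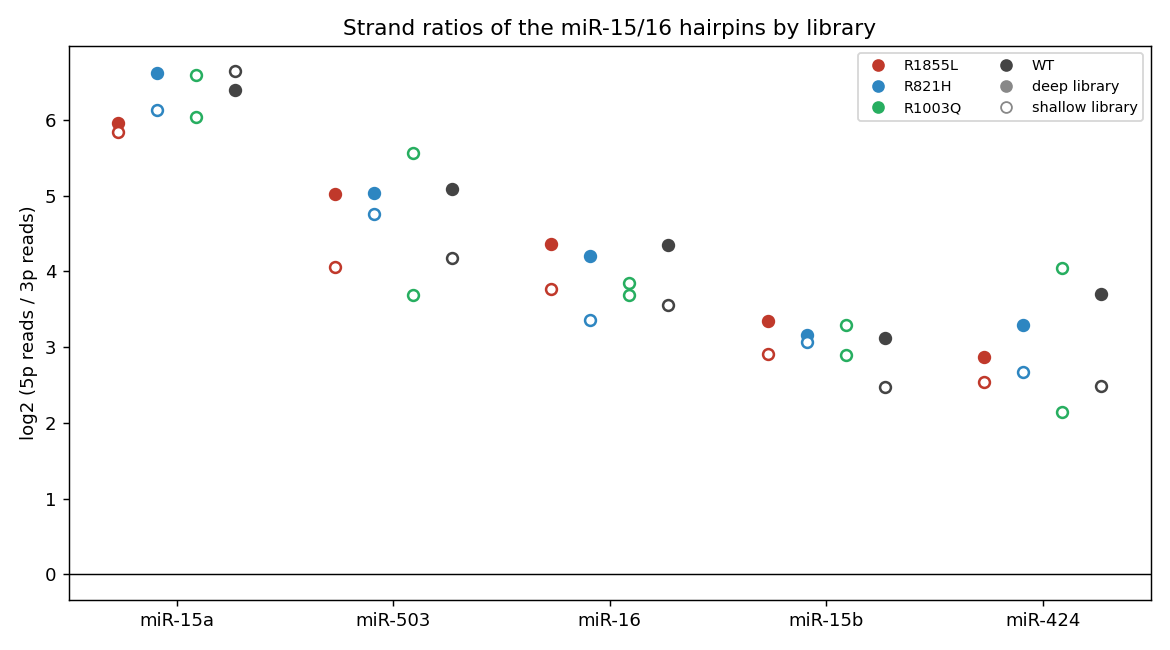
Log2 ratio of 5p to 3p reads of the 5 tested family hairpins in each library, with groups in the order R1855L, R821H, R1003Q and WT. All points lie above 0, and each mutant overlaps WT except for miR-15a, where R1855L is at 5.96 and 5.84 and WT at 6.64 and 6.39. The miR-15a 3p strand had 14 reads in R1855L replicate 2 and 19 in WT replicate 1.

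Relatives of the family were counted as well. Of the 5 other strands of the member hairpins 3 could be tested, and of 7 names from the miR-424 neighbourhood on chromosome X 4 could be tested. By edgeR 0 of either list were called in any mutant against WT. The most abundant of the X neighbours was miR-450b-5p, at 203 ± 128 CPM in R1855L, 174 ± 51.1 in R821H, 140.8 ± 8.17 in R1003Q and 147 ± 51.8 in WT. Like miR-424-5p it was called higher in the deep libraries (log2 0.89, edgeR adjusted p = 0.000377), as was miR-450a-5p (log2 0.58, adjusted p = 0.0118). Of the other strands miR-15a-3p was called higher there (log2 0.74, adjusted p = 0.0330). miR-6838-5p, which shares bases 2 to 7 of the family seed, had 0 to 2 reads per library and was not tested.

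miR-103a-3p and miR-107 carry the family motif shifted by a base, so their targets partly overlap with those of the family. Their sequences are shown for that offset, again with bases 2 to 8 in capitals.
miR-103a-3p: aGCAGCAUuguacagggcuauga
miR-107: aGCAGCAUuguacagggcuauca
miR-103a-3p had 2404 and 2278 CPM in R1855L, 4724 and 5446 in R821H, 4465 and 3543 in R1003Q, and 4352 and 5006 in WT. Both R1855L libraries were lower than the other 6. They were below both WT libraries for 21.4% of all tested names, and the share below all 6 was not counted. Against WT its log2 fold change was -0.999 (SE 0.25), with an edgeR adjusted p of 0.0667 that missed the threshold. Over the alternatives the adjusted p of hsa-miR-103a-3p ran from 8.18e-05 with the depth term to 0.384 with only the 4 libraries compared, and it was 0.0012 by DESeq2. R821H exceeded R1855L by 1.12 (edgeR adjusted p = 0.0531). miR-107 had 421 and 651 CPM in R1855L, against 1007 and 768 CPM in WT (log2 -0.73, SE 0.37, edgeR adjusted p = 0.357). Unlike the family's 5p strands, miR-107 was called lower in the deep libraries (log2 -0.62, edgeR adjusted p = 0.00215), and miR-103a-3p had 0.02.

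The names whose course over the 8 libraries was most like that of a member were found by the root mean square distance of centred log2 CPM, over 338 names with at least 50 CPM. For miR-16-5p they were miR-19a-3p at 0.165 log2 units, miR-106b-5p at 0.172 and miR-93-5p at 0.173. For miR-15b-5p they were miR-450a-5p at 0.0981, its own family member miR-15a-5p at 0.103 and miR-135b-5p at 0.111. For miR-424-5p they were miR-18a-5p at 0.163, miR-590-5p at 0.188 and miR-203a-5p at 0.188. All share the libraries and their depth with the member they resemble.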

How the data were processed

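Small RNA libraries were made from total RNA of 8 HCT116 samples by AQ-seq, a protocol with reduced ligation bias, per the labels' protocols. The titles give each library's group and replicate number. Tools named in the submitters' processing notes are cutadapt, BWA and bedtools; the genome builds there are hg38 and mm10, with no version or role for any of them. The miRNA annotation release is not given in the sources used here. The deposited tables hold estimated counts per mature name, made by the authors, with fractions of a read at 19 to 33 names per library. A name absent from a library was set to 0.

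Counts were rounded to whole numbers. Names passing filterByExpr (625 of 1818, at least 99.85% of each library's reads) were scaled by TMM and tested in R 4.3.3 with edgeR 4.0.16, in 1 robust quasi-likelihood model over all 8 libraries, with calls at a Benjamini-Hochberg adjusted p under 0.05. SE was derived from the fold change and the F statistic. Strand ratios, with 0.5 added to each read count, were tested with limma 3.58.1 in the 190 hairpins that had 80 or more reads on each strand in total. Both tests were checked on simulated data. A count of 0 allows up to 3 reads. Exact intervals on read shares cover counting error only. The edgeR intervals rest on the SE and so include the spread between libraries.

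The 10 members, the lists of relatives and markers and the alternatives were chosen with earlier results of these data known, and the read ratios between members after their values were seen. All members are described. Of each list of relatives, names are given that were called or that had the highest mean CPM. Alternatives were DESeq2 1.42.0, median-ratio factors, total counts, other filters, only the 4 libraries compared, a term for deep against shallow, another pseudocount (5) and read minimum (400), the replicate number as a block, and each library left out. Deviations of same-numbered libraries correlated at -0.674 to 0.528 between groups. The deep library is replicate 1 in R1855L and R821H but replicate 2 in WT. These values therefore cannot show whether the numbers pair libraries. Plots were made in Python 3.11.15 with matplotlib 3.10.9.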

Additional observations from a re-analysis of the deposited data

How the results depend on the processing

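The limits are 2 libraries per group, a 9.22-fold range of depth and few reads for the rarest strands. In all 3 mutants against WT 0 of the members tested were called under every alternative run, and 0 of the family strand ratios. Of the members 8 were tested with the 50 CPM filter and 10 otherwise. With the depth term edgeR called 177 of 625 names in R1855L, 16 in R821H and 2 in R1003Q. There 3 of 10 members had an unadjusted p under 0.05 in R1855L and 0 in R821H and R1003Q. Limma called 38 of 190 strand ratios in R1855L with that term, 0 in R821H and 1 in R1003Q. The replicate number as a block gave 19 calls over all names in R1855L and 0 in R821H and R1003Q. Whether the numbers pair these libraries is not known. A crossed pairing with the WT numbers swapped, added after seeing the data, gave 57, 0 and 0. Members called stayed at 0 in both settings.

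Fold changes of members turned sign in 27 values and kept it in 237 under the alternatives other than leaving a library out, with none called, and the cause was not tested. With the depth term R1003Q had 0.19 for miR-15a-5p, 0.26 for miR-15b-5p, 0.051 for miR-16-5p, 0.021 for miR-195-5p, 0.12 for miR-424-3p, 0.38 for miR-424-5p, and strand ratio changes of 0.19, 0.36 and 0.35 for miR-16, miR-424 and miR-503. In R821H miR-424-5p had 0.0071 with that term and 0.0035 with the crossed block. With no filter the values were -0.013 for miR-15a-5p, -0.046 for miR-16-2-3p and -0.073 for miR-503-5p in R821H, -0.089 for miR-15b-3p, -0.052 for miR-195-5p and -0.069 for miR-497-5p in R1855L, and -0.093 for miR-503-5p in R1003Q. With total counts they were -0.034 for miR-15a-5p, -0.0039 for miR-15b-5p, -0.086 for miR-16-2-3p and -0.094 for miR-503-5p in R821H and -0.015 for miR-497-5p in R1855L. With the 50 CPM filter they were -0.050 for miR-15b-3p in R1855L, -0.0073 for miR-16-2-3p and -0.025 for miR-503-5p in R821H. miR-503-5p in R821H also had -0.0059 by DESeq2, -0.0048 with median-ratio factors and -0.018 with only 4 libraries, and miR-497-5p in R1855L had -0.058 with the replicate block.

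Leaving out each library in turn, where a lone sample is assumed to vary like the other groups, gave these ranges where the sign turned. In R1855L log2 fold changes ran from -0.47 to 0.79 for miR-15a-5p, -0.29 to 0.21 for miR-15b-3p, -0.20 to 0.73 for miR-15b-5p, -0.75 to 0.32 for miR-16-5p, -0.62 to 0.89 for miR-195-5p, -0.0025 to 1.10 for miR-424-3p, -0.72 to 1.19 for miR-424-5p, -0.59 to 0.33 for miR-497-5p and -0.32 to 0.48 for miR-503-5p. In R1855L log2 strand ratio changes ran from -0.27 to 0.51 for miR-16, -0.996 to 0.21 for miR-424 and -0.57 to 0.39 for miR-503. In R821H log2 fold changes ran from -0.29 to 0.43 for miR-15a-5p, -0.23 to 0.42 for miR-15b-5p, -0.13 to 0.095 for miR-16-2-3p, -0.74 to 0.39 for miR-16-5p, -0.95 to 0.68 for miR-195-5p, -0.15 to 0.35 for miR-424-3p, -0.74 to 0.91 for miR-424-5p, -0.30 to 0.42 for miR-497-5p and -0.10 to 0.074 for miR-503-5p. In R821H log2 strand ratio changes ran from -0.38 to 0.10 for miR-15a, -0.0045 to 0.64 for miR-15b, -0.59 to 0.25 for miR-16, -0.71 to 0.49 for miR-424 and -0.18 to 0.72 for miR-503. In R1003Q log2 fold changes ran from -0.60 to 0.064 for miR-15a-5p, -0.42 to 0.17 for miR-15b-5p, -1.28 to 0.075 for miR-195-5p, -1.16 to 0.45 for miR-424-3p, -1.10 to 0.47 for miR-424-5p, -0.063 to 0.41 for miR-497-5p and -0.17 to 0.20 for miR-503-5p. In R1003Q log2 strand ratio changes ran from -0.48 to 0.081 for miR-15a, -0.027 to 0.62 for miR-15b, -0.57 to 0.21 for miR-16, -0.95 to 0.95 for miR-424 and -0.94 to 0.93 for miR-503. The summed family level ran from -0.48 to 0.54 in R1855L, -0.48 to 0.47 in R821H and -0.74 to 0.14 in R1003Q. Of the values that kept their sign but moved by over 1.5 times, miR-16-5p in R1003Q ran from -0.90 to -0.023, miR-16-2-3p from -0.70 to -0.33 in R1855L and -0.39 to -0.16 in R1003Q, miR-15b-3p in R821H from -0.48 to -0.030 and the miR-15b strand ratio change in R1855L from 0.011 to 0.66.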
